A study of Mus musculus with 8 samples.

Results

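The response to 5 µM 3MB-PP1 was followed in 2 lines of mouse E14 embryonic stem cells (strain 129/Ola), and genes were sought that moved the same way in both. All 8 libraries of the study were used, 4 with the compound and 4 untreated, with line as a term. In one line, called here the GSK3α line, the Gsk3a gene was knocked out and a transgene supplied GSK3α carrying the change L195G. In the other, the GSK3β line, Gsk3b was knocked out and a transgene supplied GSK3β carrying L132G. Each line therefore kept the unmutated gene of the other paralog. Each was left untreated or given the compound for 2 h, after 6 h without serum in N2B27 medium, with 2 libraries per group. Of the 48321 genes listed, 17488 had values in all columns, and the 13959 of these with a mean value of at least 1 were tested. Of the tested genes, 58 passed in both lines in the same direction: 10 rose and 48 fell.

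Each paralog was represented by 1 line, tagged c2 for the GSK3α line and c1 for the GSK3β line in the sample titles. The promoter that drives the transgenes is not given in the sources used here, and neither is a vehicle in the untreated cells. Both lines carry a mutant kinase, so inhibition of that kinase, inhibition of other kinases by 3MB-PP1 and a solvent effect cannot be told apart. Whether the 2 libraries of a group came from different cultures is not given in the sources used here. The spread behind each p-value is thus that between libraries, which may be technical.

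GSK3α and GSK3β are closely related serine and threonine kinases. In resting cells they phosphorylate many proteins and mark several of them for destruction, β-catenin of the Wnt pathway and the transcription factor MYC among them. In mouse embryonic stem cells, inhibition of GSK3 is known for favouring self-renewal in the naive state, the state of the early epiblast. A bulky analogue such as 3MB-PP1 is built to enter the ATP pocket of a kinase in which a large residue at the entrance was replaced by glycine, and so to block the mutant kinase while sparing most others. Nodal, a ligand of the TGFβ family that signals through SMAD2 and SMAD3, and FGF, which signals through ERK, both act in these cells and favour the move towards the formative epiblast. Both pathways switch on their own inhibitors, here called feedback genes. The activity of the pathways themselves was not measured.

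The values are the authors' gene counts, scaled so that the upper quartile of all libraries was equal, and a change is treated minus untreated on the scale log2(value + 1). Estimated depth was 21.5 to 32.4 M reads per library, and in both lines the treated libraries were the deeper ones. The first principal component carried 71.6% of the variance and separated the lines. All 12 embryonic stem cell markers had values, and their summed level was 6788 to 7065 in all libraries. No gene of the mesendoderm, neural, primitive endoderm, trophoblast, fibroblast and 2-cell-like marker lists passed in both lines. The summed neural markers went from 190.2 and 195.6 to 205.2 and 208.5 in the GSK3α line. In the GSK3β line they went from 212.9 and 223.9 to 305.1 and 316.4. The primitive endoderm sum was 246.7 to 250.5 in the GSK3α line and went from 187.6 and 214.5 to 286.7 and 313.7 in the GSK3β line. Trophoblast, mesendoderm and fibroblast sums were also higher in the treated GSK3β libraries, without overlap. The 2-cell-like sum was lower in the treated libraries of both lines. It was at 407 and 414.4 against 425.3 and 432.7 untreated in the GSK3α line. In the GSK3β line it was at 382.1 and 383.6 against 398 and 407.7 untreated. Gm42418, a gene that collects ribosomal RNA reads, was 124.9 and 128.6 in the untreated GSK3α libraries and 89.3 and 112.0 in the treated ones. Its log2 change there was −0.34 (limma adjusted p = 0.0196), against −0.00 in the GSK3β line. Gm26917, a gene of the same kind, changed by −0.28 in the GSK3α line (adjusted p = 0.00463) and by 0.07 in the GSK3β line. The part of such genes in the results was not tested. Gsk3a was at 155 and 160.0 untreated and 141 and 142 treated in the GSK3α line, and 76.2 to 79.9 in the GSK3β line. Gsk3b was at 52.7 to 58.2 in the GSK3α line and 235 to 258 in the GSK3β line. The table does not separate the transgene from what is left of the knocked-out gene.

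Lefty1 and Lefty2, feedback inhibitors of Nodal, had the largest of the 48 falls by the smaller change of the lines, and Chac1, a target of the transcription factor ATF4, had the largest of the 10 rises. In the GSK3α line 123 genes passed (0.881% of the tested genes), of which 86 fell (0.616%) and 37 rose (0.265%). In the GSK3β line 2084 passed (14.9%), of which 1038 fell (7.44%) and 1046 rose (7.49%). Passing means a limma adjusted p under 0.05, and rose, fell and shared are used only of genes that passed. Of the 86 genes that fell in the GSK3α line, 48 also fell in the GSK3β line (55.8%), 8 rose there and 30 did not pass. Of the 37 that rose in the GSK3α line, 10 also rose in the GSK3β line (27%), 1 fell and 26 did not pass. Seen from the GSK3β line, the same genes are 4.62% of the falls and 0.956% of the rises. The shared falls are 0.344% of all tested genes and the shared rises 0.0716%, and 9 genes (0.0645%) passed in opposite directions.

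Across all 13959 tested genes the changes in the 2 lines were only weakly related (Pearson's r = 0.080, Spearman's rho = 0.073; genes of one library are not independent). In all 58 shared genes the treated and untreated libraries did not overlap in either line. Among all tested genes, 42% did not overlap in the GSK3α line and 57.3% in the GSK3β line, and 7.22% were higher and 7.04% lower without overlap in both lines, so with 2 libraries per group the lack of overlap alone is common. Most shared changes were small: the median fall was −0.22 in the GSK3α line and −0.31 in the GSK3β line, and the median rise was 0.36 in each. Only 7 falls and 1 rise reached 0.5 on the log2 scale in both lines, whereas 28 falls and 4 rises stayed under 0.25 in the line with the smaller change. The shared genes had a median value of 71.3 over the libraries, against 22.2 for all tested genes, and the lowest of them had a mean of 4.70.

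**Figure D1:**
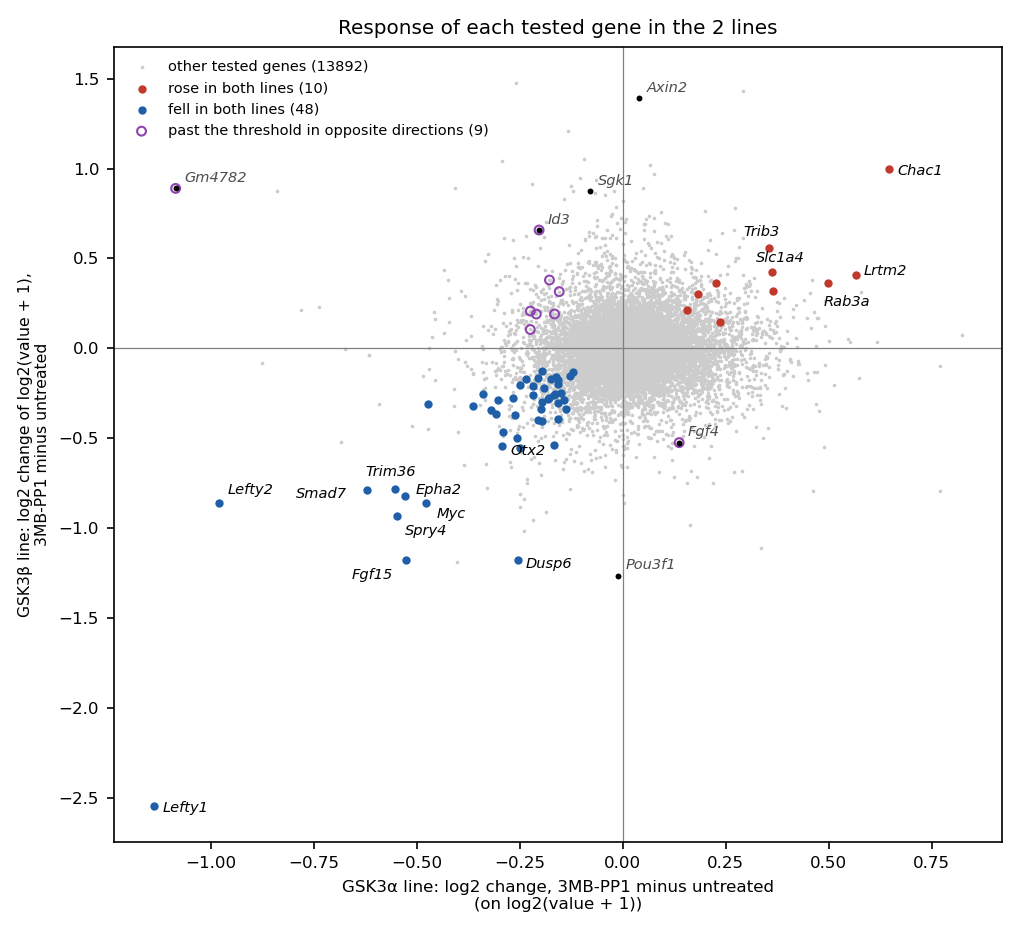
Each point is 1 of the 13959 tested genes, with the log2 change in the GSK3α line on the horizontal axis and in the GSK3β line on the vertical axis, both on log2(value + 1). The 48 shared falls (blue) lie in the lower left, led by Lefty1 and Lefty2, the 10 shared rises (red) lie in the upper right, led by Chac1, and 9 genes that passed in opposite directions are ringed.

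The number of shared genes depended on single libraries. It was 24 and 29 without the first or second untreated library of the GSK3α line, and 12 and 16 without its first or second treated library. In the GSK3β line it was 68 and 72 without an untreated library and 37 and 36 without a treated one. Whichever library was left out, 8 genes passed in both lines, among them Chac1, Lefty1, Lefty2, Smad7, Spry4, Epha2 and Sirt1. After the estimated reads were thinned to the depth of the shallowest library, 51 genes passed in both lines, 49 of them among the 58. Without the trend of the spread with expression level, 3 passed: Lefty1, Lefty2 and Epha2.

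**Figure D2:**
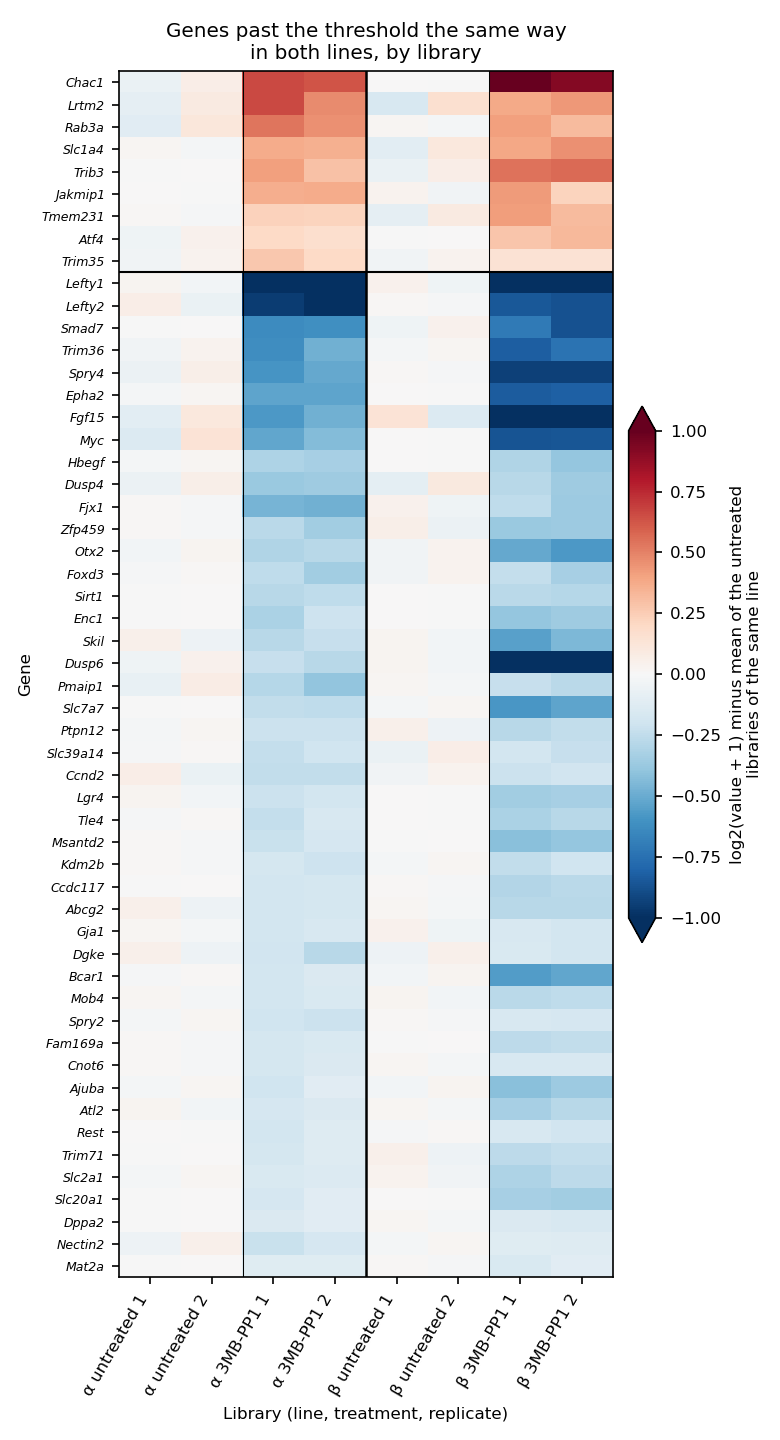
Each row is 1 of 54 of the 58 shared genes and each column 1 of the 8 libraries. Colour gives log2(value + 1) minus the mean of the untreated libraries of the same line, red for higher and blue for lower, with colours saturated beyond 1. The 4 treated libraries are red in the 9 upper rows and blue in the 45 lower rows, with stronger blue in the GSK3β line for Dusp6, Fgf15 and Bcar1.

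Lefty1, Lefty2, Smad7 and Skil, feedback genes of Nodal and TGFβ signalling, fell in both lines. Lefty1, a secreted inhibitor that keeps Nodal from its receptors, stood at 21.7 and 21.0 in the untreated GSK3α libraries and 8.86 and 9.45 in the treated ones. In the GSK3β line it stood at 54.9 and 51.8 untreated and 7.83 and 8.86 treated. The untreated level was thus higher in the GSK3β line, while the treated levels of the 2 lines lay in nearly the same range. The log2 change was −1.14 (SE 0.0700, limma adjusted p = 1.48e-08) and −2.54 (SE 0.0700, adjusted p = 2.04e-14), and the difference between the lines was −1.40 (adjusted p = 6.25e-08).

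Lefty2, its close relative with the same role, went from 49.4 and 44.9 to 23.9 and 22.9 in the GSK3α line and from 98.3 and 97.2 to 54 and 53 in the GSK3β line. All treated values lay below all untreated values within each line. The log2 change of Lefty2 was −0.98 (SE 0.0474, adjusted p = 4.93e-10) and −0.86 (SE 0.0474, adjusted p = 5.04e-10). Its difference between the lines was 0.12, with a 95% interval from −0.02 to 0.26 (adjusted p = 0.317). The 2 genes are similar in sequence: 306 stretches of 50 bases were identical in their transcripts, 17.9% of those of Lefty1 and 12% of those of Lefty2, so reads from these stretches could have been counted for either.

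Smad7, an inhibitory SMAD that blocks the receptors of the TGFβ family, went from 76.6 and 77.0 to 49.2 and 49.9 in the GSK3α line and from 72.2 and 76.3 to 45.1 and 40.2 in the GSK3β line. Its levels were nearly equal in the 2 lines before and after the compound. The log2 change was −0.62 (SE 0.0485) and −0.79 (SE 0.0485). Skil, which encodes SnoN, a repressor bound to SMAD complexes, fell by 0.26 and 0.50 on the log2 scale, with the larger fall in the GSK3β line (difference −0.24, adjusted p = 0.0245).

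Of the 17 tested genes of the Nodal and SMAD2/3 list, these 4 fell in both lines and none rose in both, against 48 falls and 10 rises among all tested genes. A further 4 passed in the average over both lines without passing in each, among them Pmepa1 (−0.45, adjusted p = 0.0235), Tdgf1 (−0.17, adjusted p = 0.0284) and Tgif2 (−0.17, adjusted p = 0.0470). By sign, 15 of the 17 were lower in both lines, where 3532 of all 13959 tested genes were, and the median change was −0.10 in the GSK3α line and −0.24 in the GSK3β line, against 0.01 and −0.01 for all tested genes. Nodal itself did not pass in either line: its values were 116 and 117 untreated and 107 and 110.1 treated in the GSK3α line, and 138 and 129 untreated and 142 and 145 treated in the GSK3β line.

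Lefty1 and Lefty2 lie close together on chromosome 1 (chr1:180935022-180938401 and chr1:180893108-180899107, GRCm38, RefSeq). Pairs of shared falls within 250 kb were also found on chromosome 13 (Enc1 and Fam169a, with 3 tested genes between them that passed in neither line) and chromosome 14 (Slc7a7 and Ajuba). These regions were picked after the values were seen.

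**Figure D3:**
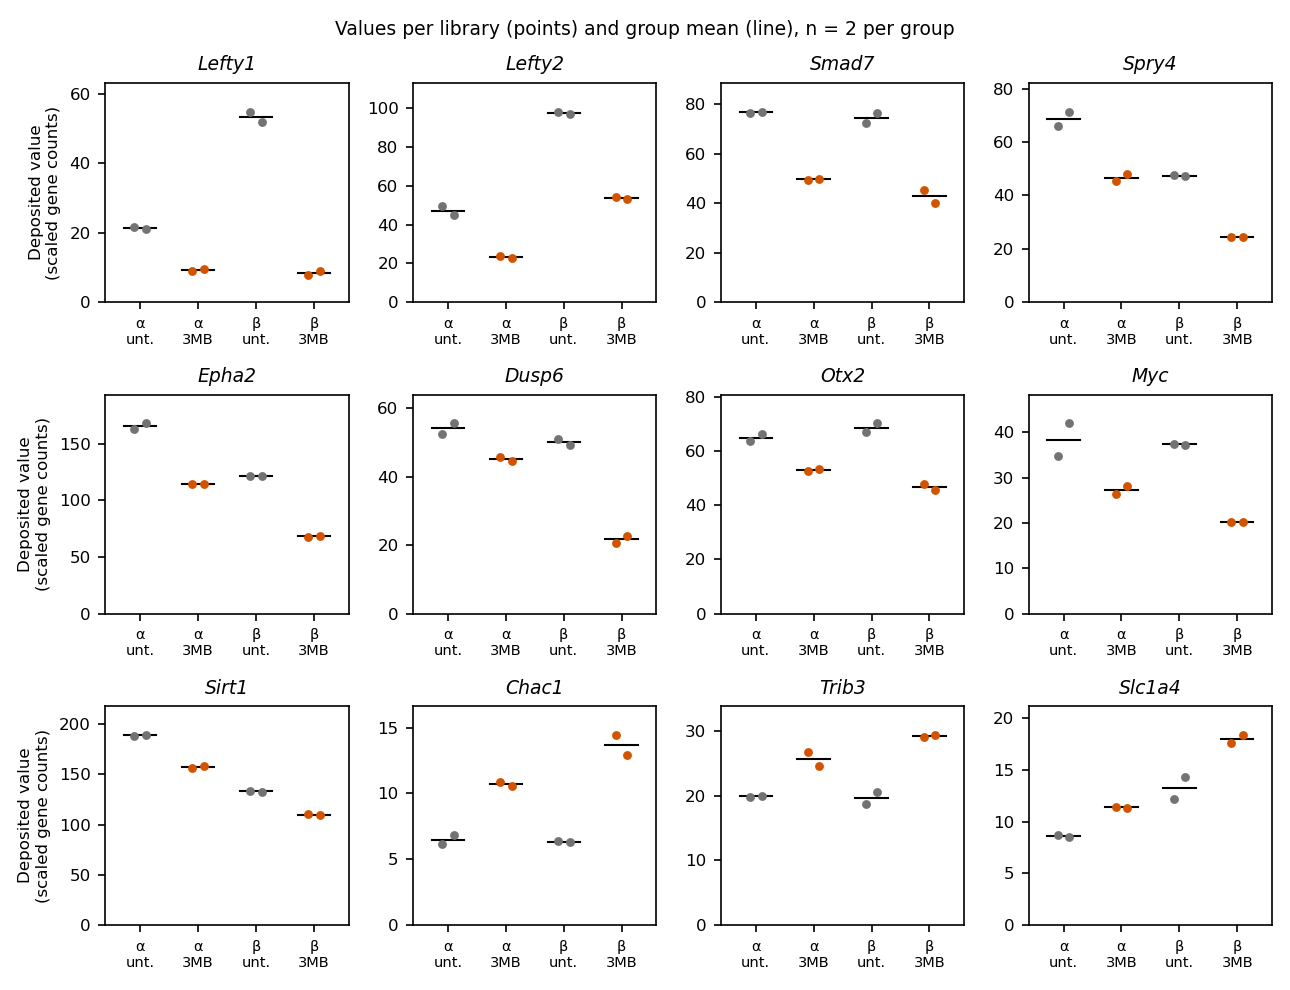
Deposited values (vertical axis, scaled gene counts, from 0) of 12 shared genes in the untreated (grey) and treated (orange) libraries of each line, with the mean of the 2 libraries as a line. Lefty1 starts higher in the GSK3β line and ends between 7.83 and 9.45 in the treated libraries of both lines, and Chac1, Trib3 and Slc1a4 are the rises.

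Negative feedback genes and targets of FGF and ERK signalling also fell. Spry4, a Sprouty protein that damps receptor tyrosine kinases, went from 66.2 and 71.5 to 45.5 and 48.0 in the GSK3α line and from 47.8 and 47.1 to 24.4 in both treated libraries of the GSK3β line. Epha2, an ephrin receptor and target of the pathway, went from 163 and 168 to 114 and 115 in the GSK3α line and from 122 and 121 to 67.9 and 68.6 in the GSK3β line. The untreated level of both genes was higher in the GSK3α line, and treated libraries were lower throughout. The log2 change of Spry4 was −0.55 (SE 0.0475) and −0.93 (SE 0.0475), and that of Epha2 −0.53 (SE 0.0330) and −0.82 (SE 0.0330). Both fell further in the GSK3β line (difference −0.38, adjusted p = 0.0015, and −0.29, adjusted p = 0.000618).

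Dusp6, a phosphatase that switches off ERK, responded unevenly. It went from 52.6 and 55.7 to 45.9 and 44.5 in the GSK3α line and from 51.1 and 49.3 to 20.7 and 22.7 in the GSK3β line. The untreated libraries of the 2 lines lay close together, and the treated ones did not. Its log2 change was −0.25 (SE 0.0514, adjusted p = 0.0205) and −1.17 (SE 0.0514, adjusted p = 2.15e-11), a difference of −0.92 (adjusted p = 2.12e-07). Dusp4, a phosphatase of the same family, changed by −0.36 and −0.32, and Spry2, a second Sprouty, by −0.21 and −0.17. For these last 2 no difference between the lines was found, with differences of 0.04 (SE 0.107) and 0.04 (SE 0.0669).

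Of the 18 tested genes of the ERK feedback and ETS list, these 5 fell in both lines and none rose in both, where 0.344% of all tested genes fell in both. Spry2 was close to the threshold in the GSK3α line (limma adjusted p = 0.044). It kept its call in 9 of 15 other settings that used all libraries, and the others of the 5 in 12 to 14. Spry4 and Epha2 also passed in both lines whichever library was left out, and Dusp4, Dusp6 and Spry2 did not. By sign 14 of the 18 were lower in both lines (3532 of all 13959 tested genes), and the median change was −0.09 in the GSK3α line and −0.10 in the GSK3β line. Etv4 and Etv5, ETS factors downstream of FGF, did not take part: Etv4 was at 0.02 and 0.12, neither past the threshold, and Etv5 was at −0.05 in the GSK3α line and rose by 0.21 in the GSK3β line (adjusted p = 7.42e-05). The immediate early genes Fos and Egr1 were listed at values between 0.833 and 2.90 and passed in neither line. None of the 18 tested immediate early genes passed in both lines.

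Among the ligands, Fgf15, a secreted FGF made by epiblast cells, went from 8.41 and 9.90 to 5.81 and 6.26 in the GSK3α line and from 16 and 13 to 6.05 and 5.62 in the GSK3β line. As with Lefty1, the untreated level was higher in the GSK3β line and the treated levels were alike. The log2 change was −0.53 (SE 0.103, adjusted p = 0.0167) and −1.18 (SE 0.103, adjusted p = 1.97e-07), with a difference of −0.65 (adjusted p = 0.0104). Fgf4, the main FGF of mouse embryonic stem cells and the neighbour of Fgf15 on chromosome 7, moved in opposite directions. It stood at 232 and 228 untreated and 249.8 and 255 treated in the GSK3α line, and at 267 and 256 untreated and 179 and 185 treated in the GSK3β line. On the log2 scale it changed by 0.14 (adjusted p = 0.0497) and −0.52 (adjusted p = 1.78e-09). Hbegf, a ligand of the EGF receptor, fell in both lines (−0.32 and −0.34).

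Some transcription factors of the formative epiblast fell in both lines. Otx2 (chr14:48656781-48667644), a homeobox factor that drives the exit from the naive state, went from 63.8 and 66.3 to 52.5 and 53.4 in the GSK3α line and from 67.1 and 70.5 to 47.9 and 45.8 in the GSK3β line, with no overlap. The change on the log2 scale was −0.29 (SE 0.0424, adjusted p = 0.00172) and −0.54 (SE 0.0424, adjusted p = 4.15e-08). Foxd3, a forkhead factor required in the epiblast, changed by −0.30 and −0.29. Of the 21 tested formative and primed epiblast genes 4 fell in both lines, Fgf15, Otx2 and Foxd3 among them, and none rose in both. By sign 13 of the 21 were lower in both lines, against 3532 of all 13959 tested genes. The median change of this list was −0.07 in the GSK3α line and −0.29 in the GSK3β line, where 16 of the 21 fell.

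Not every gene of that state took part in both lines. Pou3f1, a POU factor of the formative epiblast, stood at 8.36 and 7.61 untreated and 8.53 and 7.32 treated in the GSK3α line (log2 change −0.01, adjusted p = 0.977). In the GSK3β line it went from 16.8 and 13.9 to 5.46 and 6.15 (−1.26, adjusted p = 6.04e-08). The groups overlapped in the first line and lay well apart in the second. Among 27 tested naive pluripotency genes, only Dppa2, a chromatin factor of pluripotent cells, passed in both lines, and it fell (−0.13 and −0.15). Klf4 and Tfcp2l1, naive state factors that rose in the GSK3β line by 0.59 and 0.72, were at 0.06 and 0.01 in the GSK3α line (adjusted p = 0.476 and 0.971).

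The core factors Pou5f1 and Sox2 passed in neither line. Pou5f1 was at 0.02 and −0.06 and Sox2 at −0.06 in each. Nanog was at 0.03 in the GSK3α line and rose by 0.14 in the GSK3β line (adjusted p = 0.00286). Rest, which silences neuronal genes, was among the small shared falls (−0.16 and −0.18), as was Trim71, an RNA-binding protein of undifferentiated cells (−0.15 and −0.25).

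Of 14 tested targets of Wnt and β-catenin, the only one past the threshold in both lines was Myc, and it fell. Myc, a transcription factor of growth that is also under LIF and FGF control, went from 34.7 and 42.0 to 26.3 and 28.1 in the GSK3α line and from 37.4 and 37.2 to 20.1 in both treated libraries of the GSK3β line. On the log2 scale it changed by −0.48 (SE 0.0678, adjusted p = 0.00154) and −0.86 (SE 0.0678, adjusted p = 4.79e-08). Axin2, a feedback inhibitor and the standard reporter of β-catenin, stood at 13.9 and 13.7 untreated and 14.5 and 13.9 treated in the GSK3α line (0.04, adjusted p = 0.869). In the GSK3β line it went from 14 and 15.1 to 38.4 and 41.3 (1.39, adjusted p = 5.66e-11). The treated libraries of the GSK3α line thus stayed within 1 unit of the untreated ones, and those of the GSK3β line stood far above. None of the 27 tested Wnt pathway components passed in both lines. Tle4, a corepressor that binds TCF factors, and Lgr4, a receptor that boosts Wnt signals, are in neither of these lists. They fell in both lines, by 0.20 and 0.30 and by 0.20 and 0.34, and were named after their values were seen.

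Single genes of several other lists, and Bcar1, which is in none, were among the shared falls. Ccnd2, a D-type cyclin, changed by −0.25 and −0.20 and was the only one of 24 tested G1/S and replication genes past the threshold in both lines. In the average over both lines 4 of these 24 were lower, Ccnd2 and Ccne1 among them, and none higher. Pmaip1, which encodes the pro-death protein NOXA, changed by −0.34 and −0.25 and was the only one of 20 tested p53 targets past the threshold in both lines. In the average 5 of these 20 were lower and none higher, and by sign 12 were lower in both lines and none higher. Of all tested genes 0.344% fell in both lines and 1.07% were lower in the average, and 3532 of 13959 were lower by sign in both. Ajuba, a LIM protein of the Hippo pathway, fell by 0.16 and 0.39. Bcar1, an adaptor of focal adhesions, went from 69.9 and 71.2 to 61.9 and 63.6 in the GSK3α line and from 86.9 and 90.0 to 59.9 and 61.3 in the GSK3β line. This was again a case of unequal untreated and similar treated levels, with log2 changes of −0.17 and −0.54. Bcar1 was close to the threshold in the GSK3α line (limma adjusted p = 0.0428). It kept its call in 8 of 15 other settings that used all libraries.

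Sirt1, a deacetylase that depends on NAD, fell in both lines whichever library was left out. It went from 188 and 189 to 156 and 158 in the GSK3α line and from 134 and 133 to 110.2 and 109 in the GSK3β line. The lines differed in level, and the log2 change was −0.27 (SE 0.0308, adjusted p = 0.000144) and −0.28 (SE 0.0308, adjusted p = 3.80e-06), with a 95% interval of the difference from −0.10 to 0.08. It was the only one of the 7 tested sirtuins past the threshold in either line. Kdm2b, which brings Polycomb complexes to CpG islands, fell by 0.19 and 0.22.

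Genes of 5 membrane transporters and the enzyme gene Mat2a were also among the shared falls; they form no fixed list, and the carrier gene Slc1a4 rose in both lines. Slc7a7, a carrier of basic amino acids, changed by −0.25 and −0.55. Slc39a14, an importer of zinc and iron, changed by −0.22 and −0.21. Slc2a1, the glucose transporter GLUT1, changed by −0.14 and −0.29 and was the only one of 30 tested genes of glycolysis, glycogen and hypoxia past the threshold in both lines. Slc20a1, a phosphate carrier, changed by −0.14 and −0.34, and Abcg2, an efflux pump, by −0.18 and −0.28. Mat2a, the enzyme that makes S-adenosylmethionine, had the smallest shared fall, −0.12 and −0.13, at values of 647 and 651 untreated and 597 in both treated libraries of the GSK3α line.

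Other shared falls were Trim36, Fjx1, Zfp459, Ptpn12, Msantd2, Ccdc117, Gja1, Dgke, Mob4, Cnot6, Atl2 and Nectin2 besides Enc1 and Fam169a. Trim36, a ubiquitin ligase, had the largest step among them, from 11.3 and 11.9 to 7.19 and 8.05 in the GSK3α line and from 12.8 and 13.2 to 6.89 and 7.39 in the GSK3β line (−0.55 and −0.78). Fjx1, the homologue of a fly regulator of planar polarity, changed by −0.47 and −0.31. Gja1, the gap junction protein connexin 43, changed by −0.17 in each line. Enc1, a cytoskeletal adaptor protein, changed by −0.26 and −0.37.

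**Figure D4:**
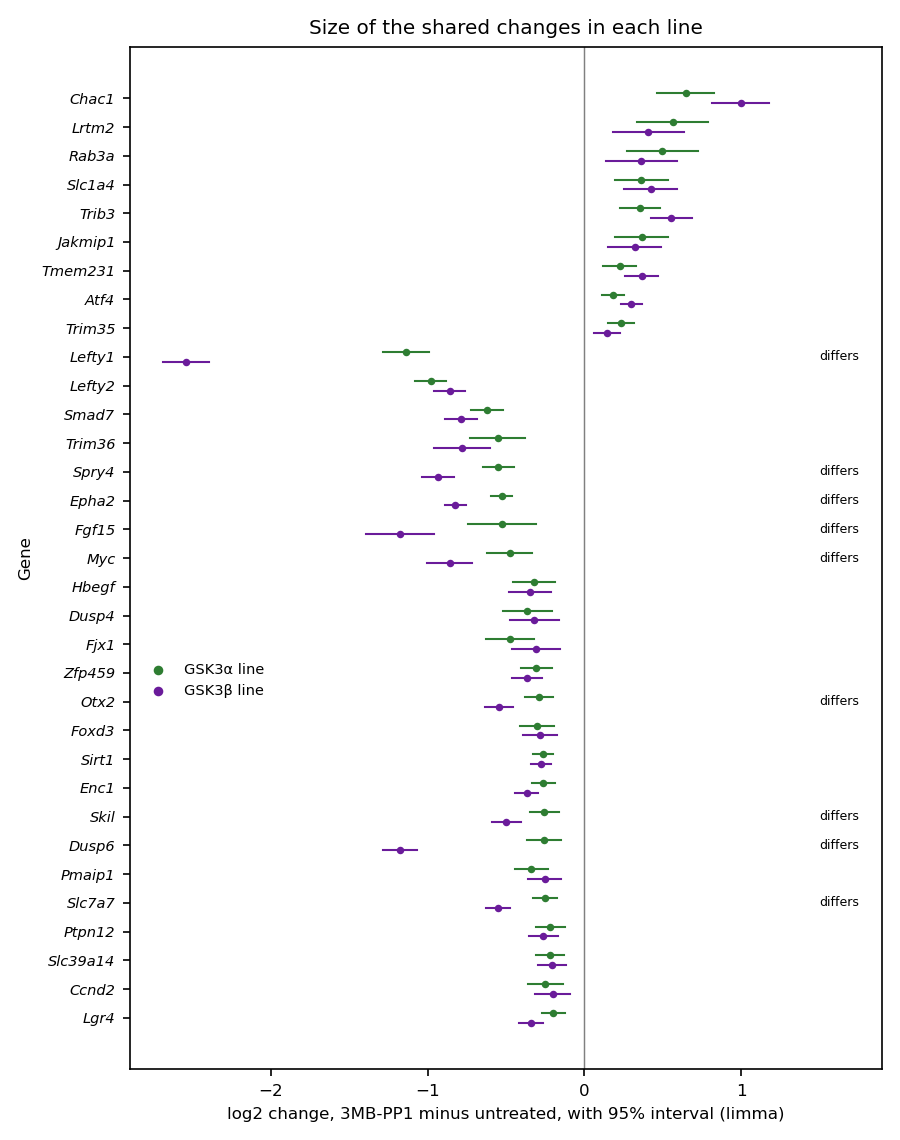
The log2 change (horizontal axis) in the GSK3α line (green) and the GSK3β line (purple) with its 95% interval from limma, for 9 of the shared rises and for 24 shared falls, taken by the size of the change in the line where it was smaller. The word differs marks genes whose change differed between the lines, such as Lefty1 and Dusp6, while Sirt1, Foxd3 and Lefty2 have overlapping intervals.

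Among the 10 rises, 4 were genes of the ATF4 list, which covers the response to amino acid shortage. Chac1 (chr2:119351242-119354326), an enzyme that degrades glutathione, went from 6.14 and 6.85 to 10.8 and 10.6 in the GSK3α line and from 6.37 and 6.31 to 14.5 and 12.9 in the GSK3β line. Untreated libraries were alike in the 2 lines, and all treated libraries stood clearly above them. Its log2 change was 0.65 (SE 0.0875, adjusted p = 0.000927) and 0.998 (SE 0.0875, adjusted p = 2.03e-07), and the difference of 0.35 did not pass (adjusted p = 0.0996).

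Trib3 (chr2:152337425-152344060), a pseudokinase that binds ATF4 and dampens it, went from 19.8 and 20 to 26.8 and 24.7 in the GSK3α line and from 18.7 and 20.5 to 29.1 and 29.5 in the GSK3β line. Slc1a4 (chr11:20302180-20332713), a carrier of alanine and serine, went from 8.76 and 8.51 to 11.5 and 11.3 in the GSK3α line and from 12.2 and 14.3 to 17.6 and 18.4 in the GSK3β line. Neither gene overlapped between groups in either line. The log2 change of Trib3 was 0.35 (SE 0.0616) and 0.56 (SE 0.0616), and that of Slc1a4 0.36 (SE 0.0803) and 0.42 (SE 0.0803). Atf4 itself went from 199 and 211 to 236 and 230.2 in the GSK3α line and from 189 and 189.9 to 230.1 and 237 in the GSK3β line, with log2 changes of 0.18 (adjusted p = 0.00916) and 0.30 (adjusted p = 3.25e-06). ATF4 is controlled mainly at translation, which RNA levels do not show.

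These 4 were the genes of the 27 tested members of the ATF4 list that rose in both lines, and none fell in both. In the average over both lines 10 of the 27 rose and none fell, where 0.659% of all tested genes rose and 1.07% fell. Apart from the 4, these were Ddit3 (0.53), Psat1 (0.20), Slc1a5 (0.18), Slc3a2 (0.13), Mthfd2 (0.24) and Phgdh (0.17), which encode a stress factor, an enzyme of serine synthesis, 2 amino acid carrier subunits, a mitochondrial folate enzyme and the first enzyme of serine synthesis. By sign 20 of 27 were higher in both lines, where 3761 of all 13959 tested genes were, with a median of 0.09 in the GSK3α line and 0.25 in the GSK3β line. Asns, asparagine synthetase, rose in the GSK3β line by 0.40 and was at −0.01 in the GSK3α line (adjusted p = 0.968). Of 19 tested unfolded protein response genes none passed in both lines, and of 19 aminoacyl-tRNA synthetases none did, where 0.416% of all tested genes were shared. In the GSK3β line alone 12 of the 19 synthetases rose, where 7.49% of all tested genes did, and none rose in the GSK3α line. By sign 15 of the 19 were higher in both lines and none lower in both. Nars and Sars passed in the average.

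The promoters of Chac1, Slc1a4 and Trib3 are shown because they hold the core of the element bound by ATF4 with C/EBP factors, TGATGNAA, here read as TTNCATCA on the strand of the gene and set in capitals. The 300 bases run from 250 before to 50 after the start of each gene, 5′ to 3′ on its own strand (RefSeq, GRCm38.p6): chr2:119350992-119351291 on the plus strand, chr11:20332664-20332963 on the minus strand and chr2:152344011-152344310 on the minus strand.
Chac1: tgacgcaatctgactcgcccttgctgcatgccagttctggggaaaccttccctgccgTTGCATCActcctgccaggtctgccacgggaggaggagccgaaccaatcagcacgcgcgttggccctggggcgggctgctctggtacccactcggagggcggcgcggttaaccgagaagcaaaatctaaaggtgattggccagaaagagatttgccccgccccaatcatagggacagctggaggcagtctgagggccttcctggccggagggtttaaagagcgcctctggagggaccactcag
Slc1a4: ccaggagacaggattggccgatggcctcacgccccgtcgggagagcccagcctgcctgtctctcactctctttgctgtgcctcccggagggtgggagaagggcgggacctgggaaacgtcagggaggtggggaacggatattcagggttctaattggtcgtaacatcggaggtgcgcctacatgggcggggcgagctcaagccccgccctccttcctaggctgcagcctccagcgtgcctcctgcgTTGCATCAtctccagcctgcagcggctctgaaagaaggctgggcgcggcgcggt
Trib3: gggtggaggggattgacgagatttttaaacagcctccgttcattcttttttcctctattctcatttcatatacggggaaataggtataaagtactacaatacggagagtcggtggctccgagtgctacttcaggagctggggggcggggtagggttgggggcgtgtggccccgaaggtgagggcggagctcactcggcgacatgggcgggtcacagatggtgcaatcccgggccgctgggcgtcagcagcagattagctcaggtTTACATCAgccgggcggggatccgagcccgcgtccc

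The first base of the match lay at −193 in Chac1, −4 in Slc1a4 and 15 in Trib3, counted from the start of the gene. Both strands were searched. Promoter entries were at hand for 34 of the 58 shared genes, and the core was in 3 of 8 shared rises with an entry, in 1 of 26 shared falls (Slc7a7) and in 8 of 23 members of the ATF4 list, against 2.59% of the promoters of 10126 tested genes. The motifs were chosen after a wider look at the same promoters. The cyclic AMP response element TGACGTCA was in none of the rises and in 4 of the 26 falls, against 3.6% of the tested genes. The TCF site CTTTGATC and the SMAD palindrome GTCTAGAC were in none of the 34 promoters, against 0.79% and 0.306%. The ETS site CCGGAAGT was in none of the rises and in 2 of the 26 falls, against 8.93%. For the E box CACGTG these were none and 5 of the 26, against 11.8%. A match describes the letters in this window and shows no binding.

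Of the cholesterol and fatty acid synthesis genes, 34 were tested, and 33 of them did not pass in both lines in the same direction. Hmgcs1, Cyp51 and Insig1 rose in the GSK3α line, by 0.17, 0.31 and 0.25, and were at −0.08, −0.05 and −0.09 in the GSK3β line. For these 3 the difference between the lines passed (adjusted p = 0.00117, 0.000516 and 0.000312).

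A further 5 shared rises fall in no list. Lrtm2, a membrane protein with leucine-rich repeats, went from 5.43 and 6.29 to 9.82 and 8.48 in the GSK3α line and from 7.27 and 9.36 to 11 and 11.5 in the GSK3β line, and changed by 0.56 and 0.41. Rab3a, a GTPase of vesicle release, changed by 0.50 and 0.36, at values of 3.49 to 6.44. Jakmip1, which binds microtubules, changed by 0.37 and 0.32, Tmem231, a protein of the ciliary transition zone, by 0.23 and 0.37, and Trim35, a ubiquitin ligase, by 0.24 and 0.15. Of the 10 rises none differed in size between the lines by the test, which does not show equal sizes. The difference for Chac1 was 0.35 with an SE of 0.124.

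Differences in size were shown for some of the falls. The difference between the lines passed for 911 of all tested genes (6.53%) and for 14 of the 48 shared falls, among them Lefty1, Dusp6, Fgf15, Spry4, Myc, Bcar1, Slc7a7, Epha2, Otx2, Skil, Ajuba, Msantd2 and Slc20a1. In all 14 the fall was larger in the GSK3β line, and of all 48 the fall was larger there in 36. For the remaining 34 a difference was not shown, which does not show equal sizes: the SE of the difference was 0.107 for Dusp4 and 0.0397 for Mat2a.

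The 9 genes that passed in opposite directions were Arid5b, E130012A19Rik, Fgf4, Gm4782, Id3, Mllt6, Nr5a2, Tet2 and Zfp654, and all but Fgf4 fell in the GSK3α line and rose in the GSK3β line. Id3, an inhibitor of basic helix-loop-helix factors and a BMP target, went from 58.9 and 61.2 to 52.2 and 51.9 in the GSK3α line and from 36.7 and 35 to 56.0 and 58.2 in the GSK3β line. The treated libraries of the lines ended closer together than the untreated ones. Its log2 change was −0.20 (adjusted p = 0.0304) and 0.66 (adjusted p = 4.32e-09). Nr5a2, a nuclear receptor that supports Pou5f1 expression, changed by −0.18 and 0.38. Tet2, which oxidises methylated cytosine, changed by −0.17 and 0.19. In Gm4782 the untreated libraries of a line lay far apart, 3.65 and 6.78 in the GSK3α line and 1.71 and 3.97 in the GSK3β line. The number of such genes was 26 without the second untreated library of the GSK3β line and 1 without either treated library of the GSK3α line.

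With line as a term, the average over both lines passed for 241 genes (1.73%), 92 higher and 149 lower, and all 241 had the same sign in both lines. That fit counts a difference between the lines as spread, so genes with opposite changes could hardly pass. The agreement in sign is thus largely built in. The average alone did not show that a response was shared. Of the 149 falls, 48 passed in both lines, 96 in the GSK3β line only, 3 in the GSK3α line only and 2 in neither. Of the 92 rises, 10 passed in both lines, 71 in the GSK3β line only, 5 in the GSK3α line only and 6 in neither. For 53 of the 241 the difference between the lines passed. Sp5, a direct β-catenin target, is an example: its average was 0.86 (adjusted p = 0.0489), from 0.29 in the GSK3α line (adjusted p = 0.494) and 1.43 in the GSK3β line (adjusted p = 4.02e-06), at values of at most 2.41. The average calls moved with single libraries too: the rises numbered 9 without the second treated library of the GSK3β line and the falls 43.

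Some average calls just missed the threshold in the GSK3α line with a change of like size. Phgdh was at 0.16 (adjusted p = 0.0547) and 0.17 (adjusted p = 0.00404). Pbxip1, which binds a homeobox cofactor, was at 0.31 (adjusted p = 0.0614) and 0.36 (adjusted p = 0.00305). Ccne1, the G1 cyclin E1, was at −0.14 (adjusted p = 0.0547) and −0.22 (adjusted p = 0.000157). F2rl1, a protease-activated receptor, was at −0.18 (adjusted p = 0.0716) and −0.26 (adjusted p = 0.000688).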

How the data were processed

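Total RNA of 8 libraries was sequenced with a TruSeq kit, per the labels' protocols. The submitters' processing notes name TopHat2, Partek and the build mm10, without versions; annotation, strand setting and filters are not given in the sources used here. The deposited values are a signal: estimated counts per gene, which the authors scaled to an equal upper quartile, to within 0.0549%. Depth was estimated as the library sum divided by its smallest value, taken as 1 read, and 63.5 to 67.6% of values up to 20 reads were then whole to within 0.1. The values are therefore no raw counts, and although a count test had been named first in the design, limma-trend (limma 3.58.1, R 4.3.3) was run on log2(value + 1), which understates changes of low genes. Genes with a mean of at least 1 were tested. The average used terms for line and treatment (5 residual degrees of freedom). Each line and their difference used 4 group means (4 residual degrees of freedom) with 1 shared spread, so the lines' tests are not fully separate although their untreated libraries are. Adjusted p-values are two-sided Benjamini-Hochberg values over all 13959 genes, with a threshold of 0.05. Shared means past it in each line with the same sign.

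The median SE was 0.0634 within a line and 0.0510 for the average. Members and gene lists were chosen with earlier results of these data known, so counts within lists stand beside those of all tested genes and carry no test. The rule for named genes took up to 12 rises and 12 falls shared by both lines, by the smaller change. It added up to 4 shared members of each list, or 2 past the threshold on average, a fixed set, 5 genes with opposite signs and 5 per direction carried by the average. Other genes past the threshold in both lines and list members that passed on average were named after their values were seen. So were Mllt6, Tet2, E130012A19Rik, Etv4, Etv5, Asns, Gm26917 and Gm42418. Some genes that entered the counts are not reported here. The fits were tested on simulated data. Alternatives were other added values, filters, scalings, spread models, thresholds, definitions of shared, thinning and leaving out each library. Symbols were matched to RefSeq (GRCm38.p6) for positions and promoters.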

Additional observations from a re-analysis of the deposited data

Results flagged for a closer look

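The change with 3MB-PP1 differed between the lines in 41 genes given here, each named by the rule or past the threshold in both lines, by the test of the difference itself (limma, adjusted p under 0.05). Values are the change in the GSK3β line minus the change in the GSK3α line on the log2 scale.

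Genes that fell in both lines and fell further in the GSK3β line included Lefty1 (−1.40), Dusp6 (−0.92), Fgf15 (−0.65), Spry4 (−0.38), Myc (−0.38), Bcar1 (−0.37), Slc7a7 (−0.30), Epha2 (−0.29), Otx2 (−0.25), Skil (−0.24), Ajuba (−0.23), Msantd2 (−0.21) and Slc20a1 (−0.20). Genes past the threshold in opposite directions were Arid5b (0.43), E130012A19Rik (0.33), Fgf4 (−0.66), Gm4782 (1.97), Id3 (0.86), Mllt6 (0.47), Nr5a2 (0.56), Tet2 (0.36) and Zfp654 (0.40).

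Genes past the threshold in the GSK3β line but not in the GSK3α line were Pou3f1 (−1.25), Pim3 (−0.29), Noct (−0.18), Nars (0.15), Sars (0.23), Esrrb (0.25), Tubb3 (0.37), Nefl (0.44), Klf4 (0.53), Tfcp2l1 (0.71), Sgk1 (0.95), Sp5 (1.14) and Axin2 (1.35). Genes past the threshold in the GSK3α line but not in the GSK3β line were Nfil3 (−0.49), Cyp51 (−0.36), Insig1 (−0.34), Hmgcs1 (−0.25) and Gsk3a (0.19). Nodal (0.21) passed in neither line.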

How the results depend on the processing

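Other added values, filters, scalings and thinning kept the counts past the threshold in both lines within 1.5 times. Without the trend of the spread with level, 0 genes rose and 3 fell in both lines, 0 moved oppositely and 1 fall differed in size, and the average gave 1 rise and 9 falls. At an adjusted p of 0.01 these were 3, 20, 0 and 8. Taking genes past on average whose libraries did not overlap gave 91 rises and 147 falls, and taking those of equal sign whose difference did not pass gave 73 and 115. The average over 4 group means gave 713 rises and 705 falls, since differences between the lines then left the spread. With each line fitted alone 18 genes moved oppositely. Leaving out 1 library gave 1 to 15 rises and 10 to 57 falls in both lines, 1 to 26 opposite genes and 4 to 19 falls that differed in size. For the average it gave 9 to 102 rises and 43 to 136 falls. With equal medians, 71.4% of the average calls were lower, against 61.8%.

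Same-numbered libraries did not deviate together (r = −0.0447 to 0.0271), so the numbers do not pair them. With the replicate number as a block, 8 rises and 35 falls passed in both lines, all among the 58, and the average gave 5 and 26. Averages that did not pass turned sign: without 1 library Arid5b lay between −0.0855 and 0.0539, Gm4782 between −0.471 and 0.248, Gsk3b between −0.0444 and 0.0197, Zfp654 between −0.0630 and 0.0501 and Nodal between −0.0382 and 0.0322, and with equal medians Nodal was at −0.00112. The causes were not tested. Genes off in any library have no value in the table, and 2 libraries per group limit what small changes can be shown.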
